A study of Sus scrofa with 8 samples.

Results

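Reversible protein phosphorylation was examined in the pig oviduct through the genes of the cyclic AMP-dependent protein kinase (PKA), protein kinase C (PKC), the AMP-activated protein kinase (AMPK), the serine/threonine protein phosphatases PP1, PP2A, calcineurin, PP4 and PP6, the phospholipases C that feed PKC, and the G protein subunits above them. Members were the probe sets to which the platform annotation gives a single symbol of these families, whatever their measured values. In all, 99 of the 24123 deposited probe sets, for 65 genes, met this rule. The array carried 0 adenylyl cyclase probe sets by platform name, and 4 probe sets annotated to both GNA11 and GNA15 were left out.

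The arrays came from 4 weaned Landrace × Large White sows with pre-ovulatory follicles and no ovulation. In each sow, sorted Y-bearing spermatozoa were placed by laparoscopy in one oviduct (Y-spermatozoa, 4 arrays) and X-bearing spermatozoa of the same pooled boars, at the same dose, in the contralateral oviduct (X-spermatozoa, 4 arrays). The oviduct mucosa was scraped 24 h later, and RNA of each oviduct was put on its own Affymetrix Porcine array. No oviduct without spermatozoa was among the arrays, the sorted populations were enriched rather than pure, and the side given to each sperm type was not given in the sources used here, so that side and sperm type cannot be told apart. Sows are numbered here by the replicate numbers of the labels, by which the oviducts were paired. Values are signals in arbitrary linear units, scaled by the authors. Differences are log2 values, Y-spermatozoa minus X-spermatozoa, after quantile normalization, and the threshold is a two-sided limma p under 0.05 without adjustment. For single probe sets the exact p is that of a two-sided permutation test over all 70 relabellings of the arrays, which ignores the pairing and cannot go below 0.0286.

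Array medians ran over signals of 38.9 to 41.5, and a background level, the 95th percentile of 64 reporter probe sets that have no pig target, was 8.40 to 12.5. Markers of the oviduct epithelium were bright in every oviduct. The oviduct-specific glycoprotein OVGP1 averaged 8674 with Y-spermatozoa and 7159 with X-spermatozoa, and the epithelial adhesion molecule EPCAM averaged 3332 with Y-spermatozoa and 3126 with X-spermatozoa. These are means of deposited signals. After quantile normalization the log2 differences were 0.02 for OVGP1 and −0.01 for EPCAM. The summed signal of 6 smooth muscle probe sets was 1256, 3712, 1566 and 3942 in the Y-spermatozoa oviducts of sows 1 to 4, against 1734, 4735, 4504 and 2545 in the X-spermatozoa oviducts. It was thus low in both oviducts of sow 1, high in both of sow 2, and unlike between the oviducts of sows 3 and 4. Of the 5 leukocyte probe sets 1 was above background throughout (CD3E, −0.21). PTPRC, the pan-leukocyte CD45, was higher with Y-spermatozoa at a mean of 11.6, against 7.15 with X-spermatozoa, past the threshold. It was above background on 2 arrays. CD3D differed by 0.99 and the CD14 probe sets by 0.36 and −0.64, and of the leukocyte list only PTPRC passed. Of the 4 sperm and germ line probe sets none was above background throughout. The protamine PRM1 averaged 2.35 with Y-spermatozoa and 1.05 with X-spermatozoa, below background on every array although past the threshold. The others were lower with Y-spermatozoa and did not pass (PRM2 −0.45, ODF1 −0.44, TNP2 −0.10). No probe set of the ciliated, secretory, endothelial, smooth muscle or red cell lists passed the unadjusted threshold. With the sow as a block, 1 of the 9 endothelial probe sets passed it, of VWF (Ssc.978.1.S1_at, 0.49), higher with Y-spermatozoa in every sow. The other VWF probe sets differed by 0.02 and −0.73, and over the endothelial list 5 differences were positive and 4 negative. In bulk samples such as these, fewer cells of a type and less RNA per cell cannot be told apart.

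As background, PKA is a tetramer whose regulatory subunits release the catalytic subunits when cyclic AMP binds. PKC isoforms respond to diacylglycerol and calcium, both raised when phospholipase C cleaves membrane phosphoinositides, and the heterotrimeric AMPK responds to a fall in cellular energy. PP1 and PP2A reverse these phosphorylations and gain their specificity from regulatory subunits. In the oviduct, cyclic AMP signalling is known for its part in ciliary beating and secretion, and calcium for its part in ciliary beating and in the contraction of the muscle layer.

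Most of these genes were expressed above background. On all 8 arrays, 82 of the 99 probe sets (82.8%), for 59 genes, exceeded it, against 65.1% of the 23935 probe sets tested. A further 12 exceeded it on some arrays and 5 on none. The families differed in this. All probe sets of PKA, AMPK, PP2A, calcineurin and the G protein beta subunits were above background on every array, as were 24 of 28 PP1 probe sets, but only 4 of 10 for PKC, 3 of 6 for phospholipase C and 2 of 5 for the G protein alpha subunits.

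The kinase and phosphatase genes as a group did not stand apart between oviducts with Y- and X-spermatozoa. At an unadjusted p under 0.05, 2 member probe sets were higher with Y-spermatozoa and 2 were lower, 4.04% of the 99, while 3.56% of all probe sets tested passed the same threshold (1.62% higher, 1.94% lower). After Benjamini-Hochberg adjustment over all probe sets tested, limma called 0 members and 0 probe sets in all, and the smallest adjusted p was 1 for the members and 0.40 for all. Without limma's moderation of the variances, the same test and adjustment called 0 members and 1 probe set in all. With the sow as a block, 4.04% of the members passed the unadjusted threshold, against 5.08% of all. The groups did not overlap for 3 members (3.03%), against 2.06% of all. The difference had the same direction in all 4 sows for 12 members (12.1%), with 5 higher and 7 lower, against 13.2% of all. A share near that of the whole array is not a result about these genes.

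The median difference over the 99 probe sets was −0.01, against 0.00 over all tested. Within sows 1 to 4 the members' median was −0.05, 0.02, −0.01 and −0.01, and 48 probe sets had a positive and 51 a negative difference. The precision is given by the intervals. For 81 of the 99 the 95% confidence interval lay within a 2-fold change in either direction (81.8%, against 68.6% of all tested), and for 59 within 1.5-fold (59.6%, against 42.3%). A p above the threshold does not show equal levels, but changes beyond these bounds lay outside the intervals of those probe sets. The shares of members and of all tested do not compare equally bright probe sets. Above background on all 8 arrays were 82.8% of the members, against 65.1% of all. Of those members, 95.1% had intervals within 2-fold.

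**Figure D1:**
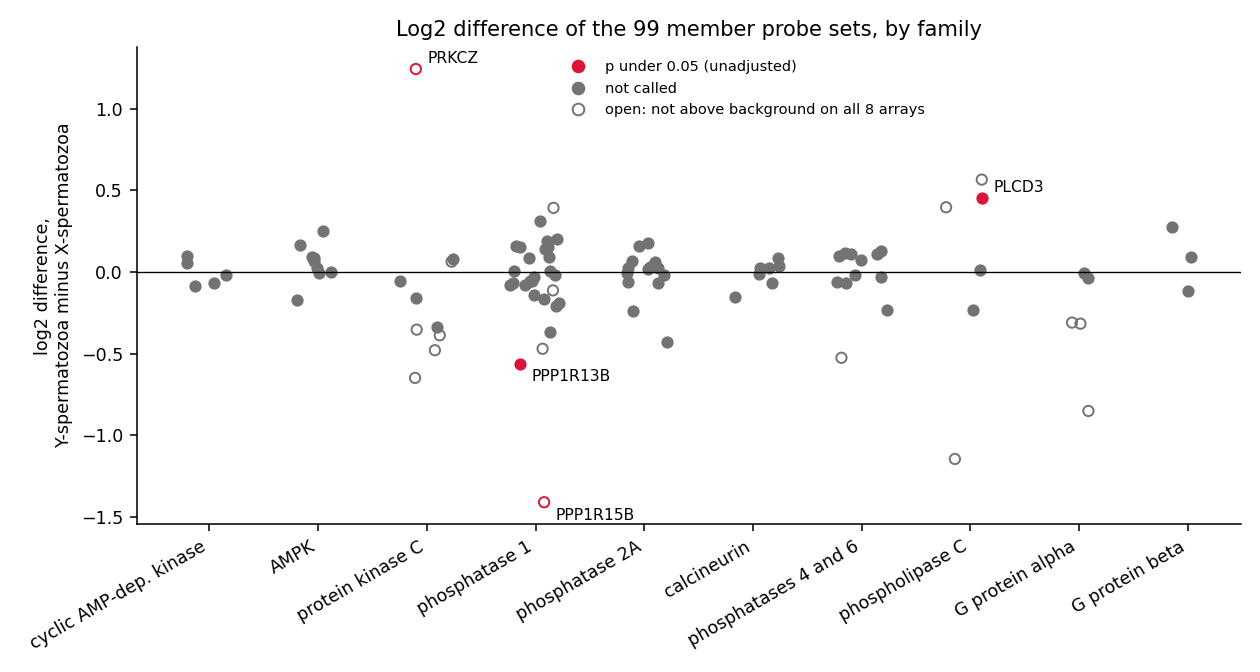
Each point is 1 of the 99 member probe sets, placed by gene family on the horizontal axis and by its log2 difference, Y-spermatozoa minus X-spermatozoa, on the vertical axis. Red points are past the threshold and open points were not above background on all 8 arrays. Most points lie close to 0, and the widest spread is among the open points of PKC, PP1 and phospholipase C.

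All probe sets of PRKCA, PPP2R5C and PRKAA1 were set side by side. PRKCA encodes the conventional isoform PKC alpha, PPP2R5C the B56 gamma subunit that directs PP2A to its substrates, and PRKAA1 the alpha 1 catalytic subunit of AMPK. The platform annotation gives these genes 7 probe sets, and none passed the threshold. The study's own list, which rests on matches to human genes, gives the same 3 names to 4 other probe sets, which carry no symbol in the platform annotation and were therefore not members. That list holds the transcripts that the study called different between Y- and X-spermatozoa on these same arrays, at a p under 0.05. Its probe sets were thus chosen for a difference and are not independent evidence of one. A contrast between them and the platform's probe sets is largely set by that choice. They are described here beside the platform's own.

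PRKCA was near background by platform name, above it on 2 arrays for the first probe set and on 1 for the second. Ssc.15802.1.A1_at read 2.5, 1.6, 10.9 and 9.8 in the Y-spermatozoa oviducts of sows 1 to 4, against 10.4, 8.4, 9.6 and 2.1 in the X-spermatozoa oviducts. Its low readings fell in the Y-spermatozoa oviducts of sows 1 and 2 and the X-spermatozoa oviduct of sow 4, so the groups overlapped, with a difference of −0.39 (95% confidence interval −2.15 to 1.37). Ssc.15802.1.S1_at read 10.5, 6.8, 6.9 and 8.4 with Y-spermatozoa, against 7.7, 4.7, 10.5 and 11.9 with X-spermatozoa. The difference was 0.06 (−0.66 to 0.78), an interval that does not settle a change of 1.5-fold either way.

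The probe set that the study names PRKCA, Ssc.27257.1.A1_at, read 4.8, 18.2, 23.8 and 17.8 with Y-spermatozoa, against 3.6, 3.8, 8.0 and 0.9 with X-spermatozoa. All 4 sows had more of it in the Y-spermatozoa oviduct, although the Y-spermatozoa reading of sow 1 lay within the X-spermatozoa range, and only 3 of its 8 readings were above background. Group means were 16.2 ± 8.05 and 4.08 ± 2.93 (SD, n = 4 each). The difference was 2.18 (SE 0.71), past the threshold in limma, with an adjusted p of 1 and an exact p of 0.0571. The difference between this probe set and the platform's 2 PRKCA probe sets was not tested.

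PPP2R5C was well expressed, and its 3 platform probe sets were close between the oviducts. Ssc.4482.1.A1_at, the brightest, read 301.2, 305.1, 280.4 and 276.4 with Y-spermatozoa, against 308.4, 299.8, 311.4 and 295.5 with X-spermatozoa. All 8 readings fell within a narrow range, and the difference was −0.07 (−0.28 to 0.15), which bounds any change at less than 1.5-fold. Ssc.4482.2.S1_at read 86.5, 65.5, 75.4 and 56.2, against 71.0, 60.2, 91.3 and 60.1, a difference of 0.02 (−0.41 to 0.46). Ssc.6731.1.A1_at read 107.2, 186.8, 95.6 and 138.1, against 131.1, 141.4, 116.1 and 120.5, a difference of 0.02 (−0.49 to 0.52). In both, readings with Y-spermatozoa lay above and below those with X-spermatozoa.

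The study's PPP2R5C probe set, Ssc.29991.1.A1_at, was dimmer and separated the groups. It read 24.1, 25.1, 18.5 and 30.1 with Y-spermatozoa, against 43.8, 35.2, 46.4 and 48.7 with X-spermatozoa, with no overlap and the same direction in 4 of 4 sows. Means were 24.5 ± 4.76 and 43.5 ± 5.90 (SD, n = 4 each). The difference was −0.81 (SE 0.18), past the threshold in limma, with an adjusted p of 1 and an exact p of 0.0286, the smallest this unpaired permutation test allows. It remained past the threshold without any single array, but not when the mean signal of the hybridisation controls entered the fit (−0.58). Those spiked-in controls averaged 10.06, 9.81, 9.98 and 9.93 on the log2 scale on the Y-spermatozoa arrays, against 9.65, 9.81, 9.71 and 9.76 on the X-spermatozoa arrays, so that they moved with sperm type in sows 1, 3 and 4.

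For PRKAA1 too, the platform's probe sets did not pass, while those of the study's list, chosen for a difference, did. Its platform probe set Ssc.26892.1.S1_at read 55, 48.6, 49.4 and 51.0 with Y-spermatozoa, against 49.4, 50.9, 52.9 and 43.3 with X-spermatozoa, a difference of 0.09 (−0.16 to 0.33). Ssc.26892.2.A1_a_at read 18.1, 28.2, 29.9 and 27.3, against 21.0, 23.7, 29.8 and 30, a difference of 0.03 (−0.43 to 0.48). Sow 1 was lowest in both oviducts on this second probe set, and neither probe set moved one way in all sows.

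The study gives the name PRKAA1 to a further pair of probe sets. Ssc.8107.1.A1_at read 73.0, 81.1, 82.7 and 93.5 with Y-spermatozoa, against 114.3, 93.7, 120.9 and 111.7 with X-spermatozoa. It was lower with Y-spermatozoa in 4 of 4 sows, with group ranges that met at 93.5 and 93.7 on the deposited scale and overlapped after normalization, and differed by −0.40 (SE 0.13), past the threshold in limma, with an adjusted p of 1 and an exact p of 0.0571. Ssc.15488.1.S1_at read 26, 30.4, 34.9 and 39.4 with Y-spermatozoa, against 73.2, 29.3, 78.3 and 67.2 with X-spermatozoa. The X-spermatozoa oviduct of sow 2 stood apart from the other three and lay among the Y-spermatozoa readings, so the probe set was lower in 3 of 4 sows. It differed by −0.82 (SE 0.32), past the threshold in limma, with an adjusted p of 1 and an exact p of 0.114.

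The call of Ssc.15488.1.S1_at was lost without limma's moderation, and without any of the Y-spermatozoa arrays of sows 1, 2 and 3 or the X-spermatozoa arrays of sows 1, 3 and 4, where the difference was −0.85 to −0.69. With the sow as a block it was lost without sow 1, 3 or 4 (−0.84 to −0.60), and that of Ssc.8107.1.A1_at without sow 1 (−0.32) or sow 3 (−0.36). Fitted beside the hybridisation controls, the differences were −0.23 and −0.21, both short of the threshold.

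**Figure D2:**
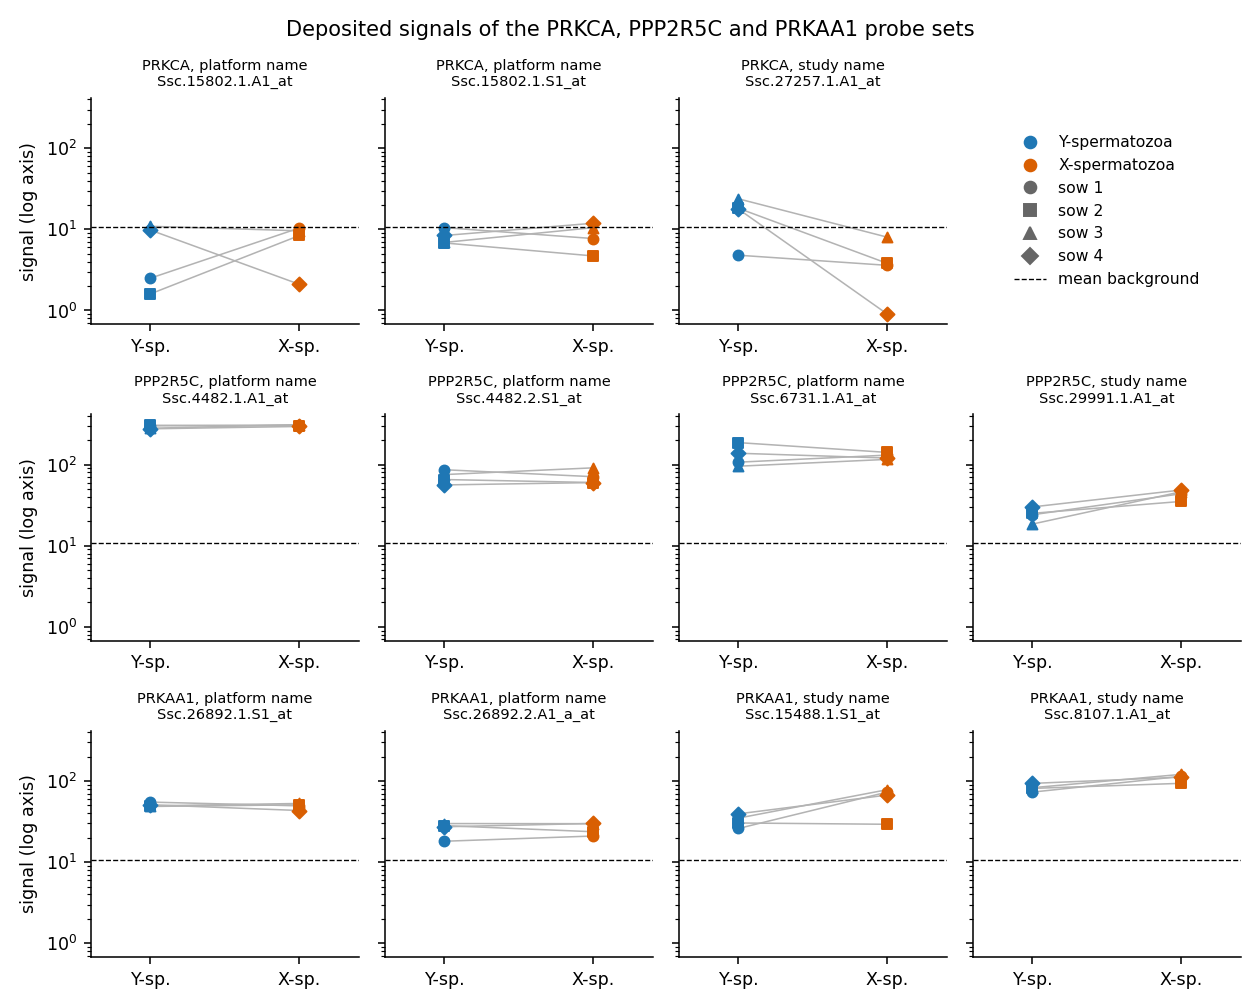
Deposited signals on a log axis for every probe set named PRKCA, PPP2R5C or PRKAA1 by the platform or by the study. Each panel has the 4 Y-spermatozoa oviducts on the left and the 4 X-spermatozoa oviducts on the right, lines join the oviducts of a sow, and the mean background of 10.7 is dashed. The 7 platform probe sets overlap between groups, while Ssc.29991.1.A1_at, from the study's list of differing transcripts, is lower in every Y-spermatozoa oviduct.

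A further 2 probe sets bear names of these families in the study's list alone. ADCY9, an adenylyl cyclase that makes cyclic AMP, read 6.5, 7.3, 8.4 and 5.4 with Y-spermatozoa, against 3.9, 3.3, 3.4 and 2.2 with X-spermatozoa (Ssc.30116.1.A1_at). The groups did not overlap, and all 8 readings were below background. The difference was 1.22 (limma adjusted p = 0.634, exact p = 0.0286), and with signals floored at the background level it was −0.11, since nothing of it was then left above the floor. GNAL, a stimulatory G protein alpha subunit, read 16.4, 14.8, 23.5 and 13.8, against 18.8, 14.3, 21.7 and 18.6, a difference of −0.05 that did not pass.

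The 4 members that passed the unadjusted threshold were PLCD3, PRKCZ, PPP1R13B and PPP1R15B. Only those of PLCD3 and PPP1R13B were above background.

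PLCD3, a delta-class phospholipase C that releases diacylglycerol and inositol trisphosphate, was higher with Y-spermatozoa in every sow. Ssc.24831.1.A1_at read 75.6, 64.0, 89.2 and 63.9 with Y-spermatozoa, against 56.9, 54.6, 55.2 and 48.4 with X-spermatozoa. The lowest Y-spermatozoa reading exceeded the highest X-spermatozoa reading. Means were 73.2 ± 12.0 and 53.8 ± 3.71 (SD, n = 4 each). The difference was 0.46 (SE 0.14, 95% confidence interval 0.14 to 0.77), past the threshold in limma, with an adjusted p of 1 and an exact p of 0.0286. The call held without each array and without each sow, and was lost when the hybridisation controls entered the fit (0.31). Of the other delta-class genes, PLCD1 had a probe set at −0.24 (Ssc.3583.1.S1_at, above background) and 2 dimmer ones at 0.57 and −1.15, PLCD4 was near background (0.40), and none passed. PLCG1, the gamma-class enzyme downstream of receptor tyrosine kinases, was close to equal (0.01, −0.29 to 0.32).

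PPP1R13B, known in human cells as the p53 partner ASPP1, was lower with Y-spermatozoa in every sow. Ssc.3427.1.S1_at read 64.8, 48.5, 52.7 and 35.3 with Y-spermatozoa, against 73.0, 92.8, 71.3 and 59.9 with X-spermatozoa. The groups overlapped, because the Y-spermatozoa oviduct of sow 1 read above the X-spermatozoa oviduct of sow 4. Means were 50.3 ± 12.2 and 74.3 ± 13.7 (SD, n = 4 each). The difference was −0.56 (SE 0.21, −1.06 to −0.06), past the threshold in limma, with an adjusted p of 1 and an exact p of 0.0571. The call was lost without any of 5 arrays, namely the X-spermatozoa arrays of sows 1, 2 or 3 and the Y-spermatozoa arrays of sows 2 or 4, with differences of −0.59 to −0.40.

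The remaining pair lay below background on all 8 arrays. PRKCZ, the atypical PKC zeta of epithelial polarity complexes, had a probe set (Ssc.12430.2.A1_at) at 5.3, 5.6, 3.4 and 6.2 with Y-spermatozoa, against 0.7, 3.6, 3.7 and 2.0 with X-spermatozoa, a difference of 1.24 (limma adjusted p = 1, exact p = 0.0286). PPP1R15B, which targets PP1 to the translation factor eIF2, had a probe set (Ssc.24862.2.S1_at) at 1.1, 0.7, 1.3 and 1.5, against 1.8, 7.9, 3.2 and 3.1, a difference of −1.41 (limma adjusted p = 1, exact p = 0.0286). Brighter probe sets of the same genes did not pass the threshold. PRKCZ Ssc.12430.3.S1_at, above background on 7 arrays, was at −0.35, and PPP1R15B Ssc.24862.1.S1_at, above it on 1, was at 0.39. PRKCZ Ssc.12430.1.S1_at read 117.1, 83.2, 134.5 and 91.2 with Y-spermatozoa, against 79.2 to 112.8 with X-spermatozoa (0.08, −0.37 to 0.53), and PPP1R15B Ssc.8559.1.S1_at read 56.5, 60.0, 57.2 and 44.7, against 47.4, 44.4, 48.3 and 61.0 (0.14, −0.22 to 0.49). With signals floored at background, both calls were lost.

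**Figure D3:**
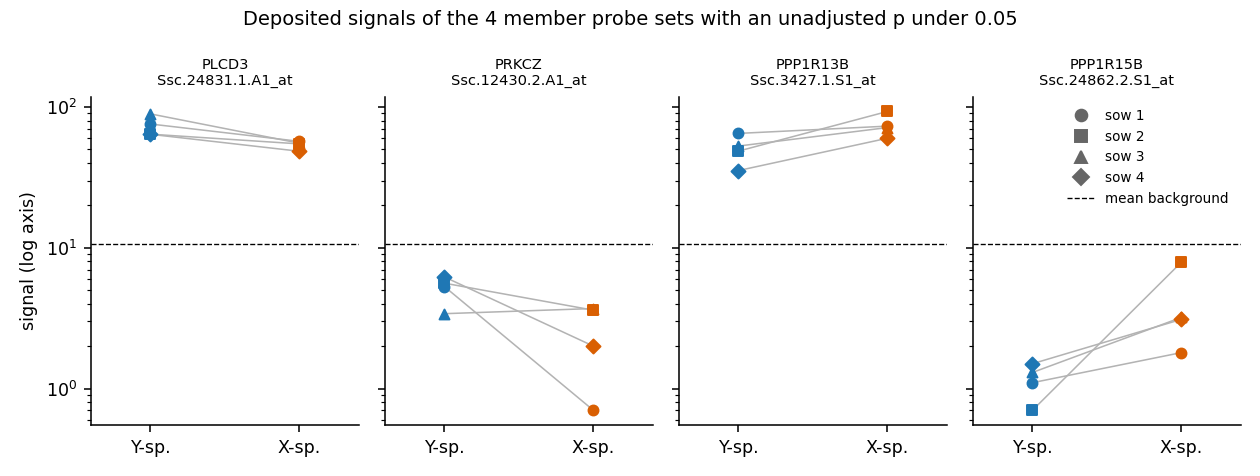
Deposited signals, on a log axis, of the 4 member probe sets past the threshold. Each panel has Y-spermatozoa oviducts on the left and X-spermatozoa oviducts on the right, marker shapes give the sow, lines join the oviducts of a sow, and the mean background is dashed. PLCD3 and PPP1R13B lie above the line on all arrays and PRKCZ and PPP1R15B below it.

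PKA genes were steady. The 5 probe sets ranged over differences of −0.08 to 0.10, and for 4 of them the interval lay within 1.5-fold. The type I regulatory subunit PRKAR1A was the brightest, at 819.7, 1057.1, 864.1 and 1227.8 with Y-spermatozoa, against 868.8, 954.7, 959.2 and 1246.6 with X-spermatozoa (Ssc.105.2.A1_at, −0.07, −0.44 to 0.31). Sow 4 read highest in both oviducts on this probe set and lowest in both on the other, Ssc.105.1.S1_at, which read 554.3, 632.2, 662.2 and 551.1 with Y-spermatozoa, against 653.6, 632.8, 630.5 and 490.6 with X-spermatozoa (−0.02). The catalytic subunit PRKACB read 113.3, 139.0, 103.6 and 133.4, against 142.5, 119.8, 114.7 and 144.6 (−0.08), and PRKACA differed by 0.10 (−0.29 to 0.48). Levels are not compared between genes here, since probe sets differ in brightness for the same amount of RNA.

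The 9 AMPK probe sets ranged over −0.17 to 0.25, all were above background, and the interval lay within 2-fold for all 9. PRKAG2, a nucleotide-binding gamma subunit, read 655.4, 470.4, 796.5 and 476.6 with Y-spermatozoa, against 663.5, 477.3, 606.5 and 487.3 with X-spermatozoa. Sows 1 and 3 read high and sows 2 and 4 low in both oviducts, while the difference between sperm types was 0.07. The scaffolding beta subunit PRKAB1 read 325.8, 263.0, 329.3 and 346.5, against 298.9, 263.2, 327.2 and 373.7, a difference of 0.00 (−0.35 to 0.35). The other catalytic subunit, PRKAA2, differed by 0.17 (−0.24 to 0.57), and PRKAG3, the gamma subunit best known from skeletal muscle, by 0.25 (−0.07 to 0.57).

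PKC was the least measurable kinase family, with 6 of 10 probe sets not above background on every array. Among the 5 of the conventional isoforms PRKCA and PRKCB, only PRKCB Ssc.4792.1.A1_at was above background throughout. It read 21.5, 24.9, 19.7 and 18.5 with Y-spermatozoa, against 21.1, 30.6, 28.8 and 30.1 with X-spermatozoa, lower in 3 of 4 sows, and did not pass (−0.34, exact p = 0.0857) in the fit without a block, though it did with the sow as a random block. PRKCD and PRKCH, which need diacylglycerol but not calcium, were above background on all arrays. PRKCH, an isoform known from epithelia, read 80.1, 112.6, 83.5 and 142.6, against 90.4, 125.2, 93.1 and 123.4 (−0.06), and PRKCD differed by −0.16 (−0.67 to 0.35).

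Among 28 PP1 probe sets the differences ran over −1.41 to 0.39 with a median of −0.04, and 2 were lower at the threshold (7.14%, where 3.56% of all probe sets passed in either direction and 1.94% were lower). The catalytic subunits did not share a direction. PPP1CC Ssc.11661.1.A1_at, the brightest, read 933.2, 1028.8, 879.1 and 955.7 with Y-spermatozoa, against 1003.8, 1023.9, 987.4 and 906.0 with X-spermatozoa (−0.08, −0.31 to 0.15). The second PPP1CC probe set was at 0.19 (−0.09 to 0.47), the 2 of PPP1CA at 0.20 and 0.31, and the 2 of PPP1CB at −0.14 and −0.37. PPP1CB Ssc.5232.2.A1_a_at read 479.3, 585.5, 506.6 and 933.4 with Y-spermatozoa, against 728.5, 623.1, 781.4 and 950.9 with X-spermatozoa. It was lower in 4 of 4 sows, with overlapping groups (exact p = 0.200).

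PPP1R12A, the MYPT1 subunit that brings PP1 to myosin, had 3 probe sets at −0.07, −0.17 and −0.19. Ssc.6525.1.S1_at read 439.2, 457.3, 427.8 and 465.9 with Y-spermatozoa, against 463.9, 531.2, 528.7 and 470.2 with X-spermatozoa, and Ssc.6525.2.A1_at read 37.3, 61.6, 46.2 and 50.4, against 45.1, 67.9, 49.4 and 64.4. These 2 were lower with Y-spermatozoa in all 4 sows and did not pass the threshold (exact p = 0.0571 and 0.429). PPP1R14A, known as CPI-17, an inhibitor of myosin phosphatase in smooth muscle, read 9.1, 23.4, 10 and 19.6, against 19.6, 23.1, 24.0 and 16.9 (−0.47, exact p = 0.343). Its low readings were those of the Y-spermatozoa oviducts of sows 1 and 3, which also had the lowest summed smooth muscle markers (1256 and 1566). The X-spermatozoa oviduct of sow 1, with the next lowest sum (1734), read 19.6. The part of that tissue in the values of PPP1R14A was not tested. With the smooth muscle markers as a covariate, an alternative chosen after seeing the data, 2 members were higher and 2 lower. In that fit 4.39% of all probe sets tested passed.

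The other PP1 regulators did not pass the threshold. PPP1R15A, the stress-induced eIF2 phosphatase subunit GADD34, differed by 0.15 (−0.33 to 0.63), the glycogen-targeting PPP1R3B by −0.02 (−0.41 to 0.37), the nuclear inhibitor PPP1R8 by 0.16 (−0.18 to 0.49), and PPP1R7, the SDS22 subunit, by −0.03 (−0.30 to 0.23). Among the 8 probe sets of the inhibitors PPP1R1A, PPP1R2, PPP1R11 and PPP1R14A, B and D, 0 passed, with 4 positive and 4 negative values, from −0.47 to 0.15.

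PP2A genes were close between the oviducts, with a median of 0.02, all 14 probe sets above background and intervals within 1.5-fold for 11. The catalytic subunit PPP2CB read 887.6, 1212.5, 1056.6 and 1118.4 with Y-spermatozoa, against 970.5, 1161.8, 1087.4 and 1008.3 with X-spermatozoa (−0.02, −0.31 to 0.27), and PPP2CA Ssc.13983.1.S1_at differed by 0.06 (−0.18 to 0.30). The scaffold PPP2R1B had probe sets at 0.18 and 0.16, the first higher in all 4 sows, at 225.5, 237.3, 252.1 and 274.8 with Y-spermatozoa, against 203.3, 234.7, 216.8 and 220.4 with X-spermatozoa (exact p = 0.0571). Beside PPP2R5C, the B56 subunits PPP2R5A and PPP2R5E differed by −0.01 and −0.06, each within 1.5-fold. PPP2R5D, the dimmest of them, read 12.8, 10.4, 26.2 and 20.4, against 21.0, 23.6, 24.1 and 23.6 (−0.43, −1.06 to 0.20).

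Calcineurin, the calcium- and calmodulin-dependent phosphatase, was the only one of these families with every interval within 1.5-fold. All 7 probe sets of its catalytic subunits PPP3CA, PPP3CB and PPP3CC had differences between −0.15 and 0.09. PPP3CA Ssc.15878.1.S1_at read 275.5, 327.8, 304.9 and 297.9 with Y-spermatozoa, against 286.0, 353.8, 302.9 and 320.0 with X-spermatozoa. Among the 12 PP4 and PP6 probe sets, 0 passed. PPP4R3B, a regulatory subunit of PP4, had the higher reading with Y-spermatozoa in all 4 sows, at 478.9, 484.7, 462.4 and 445.3, against 462.8, 394.4, 434.2 and 431.4, with overlapping groups (0.12, exact p = 0.0571), and the catalytic PPP6C differed by −0.07 (−0.35 to 0.21). Over all 61 phosphatase probe sets, 0 were higher and 2 lower at the threshold (3.28%, against 3.56% of all probe sets tested), and 53 had intervals within 2-fold.

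G protein subunits did not pass in any case. GNAI2, an inhibitory alpha subunit that lowers cyclic AMP, read 613.1, 543.2, 589.2 and 600.4 with Y-spermatozoa, against 527.7, 533.8, 660.7 and 652.6 with X-spermatozoa (−0.04, −0.33 to 0.25), and GNAI1 Ssc.4159.1.A1_at differed by −0.01 (−0.42 to 0.40). GNAS, the stimulatory alpha subunit, was near background on its only probe set, at 9.7, 2.1, 11.7 and 8.9, against 12.2, 12.5, 11.5 and 17.0 (−0.85, −2.0 to 0.30), so that a 2-fold change of this gene could not be told at this brightness. The beta subunit GNB2 read 530.1, 542.3, 504.8 and 516.5, against 468.4, 516.7, 504.7 and 461.1 (0.09, −0.13 to 0.31).

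Where a gene had several probe sets, these often differed in sign. This held for 14 of the 24 genes with more than 1 probe set, among probe sets of which nearly all missed the threshold.

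Differences between sows were next compared with those between sperm types, in a fit with both terms. No member, and 0% of all probe sets tested, differed between sows at an adjusted p under 0.05 in limma. At an unadjusted p under 0.05, 9 members did (9.09%), against 14.2% of all. The number of members was 20 under a pseudocount of 16 and 19 with a floor at background, where 20.1% and 20.4% of all probe sets passed. Of the 9, 7 were above background on all arrays, and the other two, of GNAZ and PLCD1 (Ssc.19518.2.S1_at), were not. The beta subunit of AMPK PRKAB2 had sow means of 42.1, 18.4, 39.1 and 29.3 for sows 1 to 4 (adjusted p = 0.227), with 39.2, 18.7, 32.5 and 26.9 in the Y-spermatozoa oviducts, against 45.0, 18.1, 45.6 and 31.7 in the X-spermatozoa oviducts. Both oviducts of sow 2 were the lowest. The PKA regulatory subunit PRKAR2A was lowest in both oviducts of sow 3, at 14.9 with Y-spermatozoa and 12.4 with X-spermatozoa, and had sow means of 19.8, 23.4, 13.7 and 26 (adjusted p = 0.250).

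PPP1CA, PRKCH and 1 of the 3 PPP1R12A probe sets had higher means in sows 2 and 4 than in sows 1 and 3. PPP1CA Ssc.21716.2.S1_at had sow means of 56, 88.3, 43.2 and 81.8 (adjusted p = 0.298), PRKCH of 85.3, 118.9, 88.3 and 133.0 (adjusted p = 0.305), and PPP1R12A Ssc.6525.2.A1_at of 41.2, 64.8, 47.8 and 57.4 (adjusted p = 0.300). PRKAG2 was the reverse, at 659, 474, 702 and 482 (adjusted p = 0.338). PPP4R1L, a relative of a PP4 regulatory subunit, stood highest in sow 3, with means of 32.3, 25.1, 50.2 and 29.9 (adjusted p = 0.268). Age, day of the cycle and other properties of the sows were not set against these values.

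**Figure D4:**
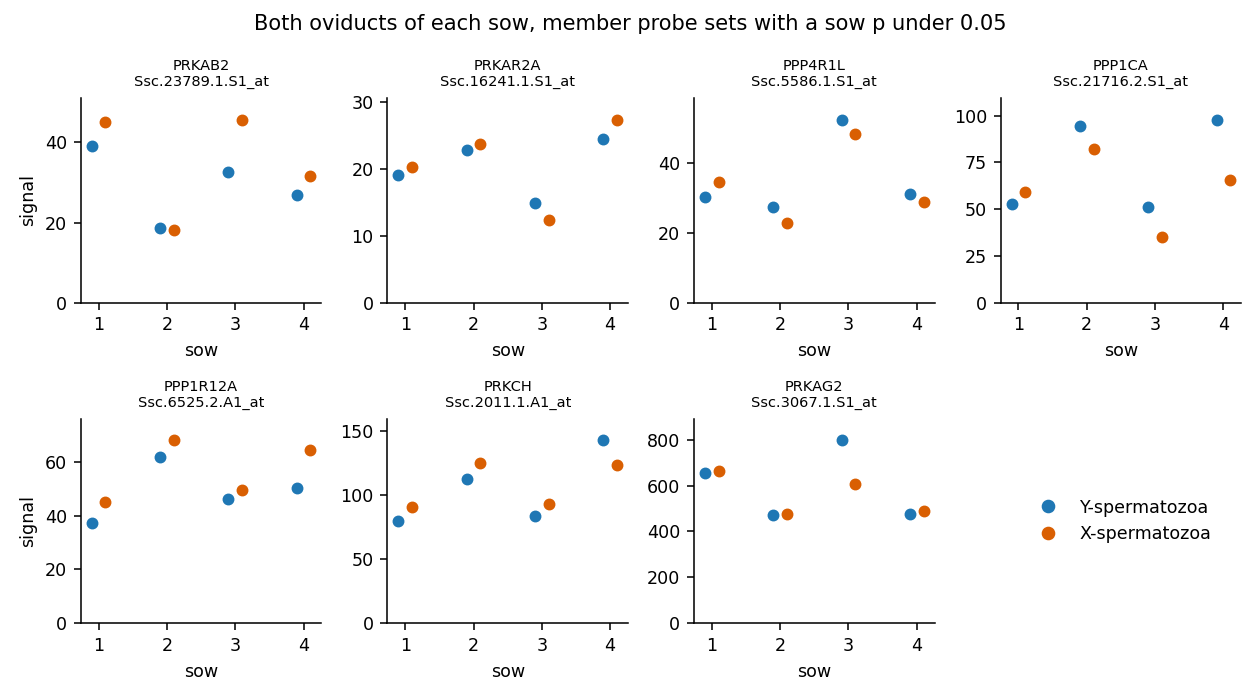
Deposited signals of the 7 member probe sets above background on all arrays whose limma test between sows gave an unadjusted p under 0.05. In each panel the horizontal axis gives the sow and the vertical axis the signal from 0, with the Y-spermatozoa oviduct to the left of the X-spermatozoa oviduct of the same sow. The probe sets were chosen by this test, so that the oviducts of a sow lie close by choice, as in PRKAB2, where sow 2 reads 18.7 with Y-spermatozoa and 18.1 with X-spermatozoa.

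The partners of these enzymes were examined from 5 lists of 170 genes, of which 80 were measured, by 130 probe sets. They comprised anchoring proteins, phosphodiesterases, kinase inhibitors and CREB factors for cyclic AMP, upstream kinases and targets of AMPK, diacylglycerol and calcium handling genes, phosphatase inhibitors and regulators, and G protein gamma subunits and RGS proteins. At an unadjusted p under 0.05, 1 was higher and 1 lower with Y-spermatozoa (1.54%, against 3.56% of all), and the median difference was 0.00. Between sows, 17 of the 130 passed at an unadjusted p under 0.05 (13.1%, against 14.2% of all).

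The higher probe set was of AKAP8, an anchoring protein of PKA, at 2.1, 4.9, 5.1 and 2.1 with Y-spermatozoa, against 3.2, 0.9, 1.0 and 0.7 with X-spermatozoa (Ssc.7750.2.A1_at, 1.35, exact p = 0.0857). All its readings were below background. The lower was of RGS2, which switches off G protein alpha subunits, at 7.3, 1.9, 8.2 and 2.3, against 10.8, 17.9, 8.2 and 9.2 (Ssc.18298.3.A1_at, −1.34, exact p = 0.0571), with 2 readings above background. Both passed in limma without a block (adjusted p = 1 for each) and neither with the sow as a block. A brighter RGS2 probe set, Ssc.3139.1.A1_at, averaged 200 with Y-spermatozoa and 278 with X-spermatozoa and did not pass (−0.38, exact p = 0.571). The CREB family factor CREM, which answers cyclic AMP, had 4 probe sets, all above background, at −0.10 to 0.13. With the block, PPARGC1A, a coactivator downstream of AMPK, was lower (−0.36) and a dim probe set of the phosphodiesterase PDE3A higher (Ssc.15901.2.S1_at, 0.70), while without it neither passed. The adjusted p was no lower than 0.894 for any member in the blocked fit.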

How the data were processed

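RNA of 8 oviducts (4 sows, 1 array per oviduct) was measured on Affymetrix Porcine arrays. The deposited values are intensities on a linear scale (a signal for each probe set) that the authors computed and scaled with Microarray Suite 5.1. The methods describe RMA, which needs probe-level data not used here, and detection calls were not used. Signals of all 24123 probe sets were therefore quantile normalized, floored at 1 and put on the log2 scale. The 124 AFFX and 64 reporter probe sets were left out of the test, and 23935 were tested with limma 3.58.1 (lmFit, eBayes) in R 4.3.3 on the group means, with Benjamini-Hochberg adjustment over all of them. Python 3.11.15 and matplotlib 3.10.9 drew the figures.

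The study states that both oviducts of a sow were used. Equal replicate numbers in the labels were taken to mark the same sow and so pair 2 arrays, although the labels do not name the animal. Within a sow, the arrays' deviations from their group means had r of 0.13 to 0.19, and each array correlated best with the other array of its sow. The sow also entered as a block in a further fit, in which differences between sows were tested with a moderated F-test.

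Symbols come from the platform annotation, in which 10099 probe sets have 1 symbol, 198 several and 13826 none. By gene ID, 94 of the 99 members matched the pig RefSeq gene table, with 0 differing symbols. The members, the 5 partner lists and the marker lists (ciliated, secretory, endothelial, leukocyte, germ line, red cell and smooth muscle) were chosen with earlier results of these data known. Genes named by rule were all PRKCA, PPP2R5C and PRKAA1 probe sets, the study's ADCY9 and GNAL, members and partners past the unadjusted threshold of 0.05, and per family the 2 brightest genes and the one with the widest spread between sows. Other members were named after their values were seen, to describe each role.

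Alternatives were a fixed or random sow block, median centring, the deposited scaling, a pseudocount of 16, a floor at background, brighter probe sets only, a variance trend, an unmoderated test, a covariate for the hybridisation controls, and omission of single arrays or sows. A smooth muscle covariate was chosen after seeing the data. The test was tried on simulated data. The number of arrays limits the precision.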

Additional observations from a re-analysis of the deposited data

Results flagged for a closer look

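In 72 groups of 4 arrays (36 named probe sets, each group apart), 5 groups held a sample far from the other three, its gap to the nearest taking most of the group's range (Dixon's criterion). Chance flags about 1 in 20 groups. The X-spermatozoa oviduct of sow 2 read 29.3 on the study's PRKAA1 probe set Ssc.15488.1.S1_at, against 73.2, 78.3 and 67.2 in the X-spermatozoa oviducts of sows 1, 3 and 4. The Y-spermatozoa oviduct of sow 1 read 18.1 on the platform's PRKAA1 probe set Ssc.26892.2.A1_a_at, against 28.2, 29.9 and 27.3 in the other Y-spermatozoa oviducts. For PRKCA Ssc.15802.1.A1_at the X-spermatozoa oviduct of sow 4 read 2.1, against 10.4, 8.4 and 9.6 in the others of its group. For PPP1CC Ssc.11661.1.A1_at the same oviduct read 906, against 1003.8, 1023.9 and 987.4. The X-spermatozoa oviduct of sow 1 read 3.2 on AKAP8 Ssc.7750.2.A1_at, against 0.9, 1.0 and 0.7 in the others, all below background. The criterion was applied to normalized signals floored at 1, where those others were equal, so that this flag rests on the floor.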

How the results depend on the processing

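The counts of member probe sets past the unadjusted threshold, 2 higher and 2 lower, were the same with the sow as a block (partners 2). A random sow block gave 2 higher and 3 lower, adding PRKCB Ssc.4792.1.A1_at, and 1458 calls over all probe sets against 853 without a block. Centring each array on its median put the members' median at 0.028. The deposited scaling gave 268 higher and 628 lower calls over all probe sets, against 388 and 465. A pseudocount of 16 left 1 lower member and 1 partner. A floor at background left 1 higher member, 1 lower member and 1 partner, and testing brighter probe sets alone (66 members of 11967) 1 higher member, 1 lower member and 0 partners. Both settings drop the dim PRKCZ and PPP1R15B probe sets by construction. Of all probe sets tested, 3.39% passed with the pseudocount, 2.73% with the floor and 2.61% among brighter ones alone. With the hybridisation controls as a covariate there were 0 higher and 3 lower members, 5 partners and a median of 0.053, and the cause was not tested. In that fit 3.76% of all probe sets passed. Between sows, 1 member passed the adjusted threshold with a floor at background (PRKAB2) and 1 among brighter probe sets alone (PPP1CA), where over all probe sets 698 and 885 passed. A pseudocount of 16 and a variance trend gave 0 members, and 414 and 219 probe sets in all. At the unadjusted threshold the sow test called 9 members, against 20 with that pseudocount, 19 with the floor, 18 with the trend, 16 of 66 brighter ones and 4 without sow 3. In the same order, 14.2%, 20.1%, 20.4%, 19.5%, 29.4% and 11.7% of all probe sets tested passed.

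Leaving out each array, or each sow with the block, gave 1 to 3 higher and 0 to 4 lower members, 1 to 6 partners and a median of −0.03 to 0.01. In these fits 3.18% to 5.03% of all probe sets tested passed. The fewest lower members (0) came without sow 4 and the most (4) without the Y-spermatozoa array of sow 3. With a floor at background, PRKCZ Ssc.12430.2.A1_at, AKAP8 Ssc.7750.2.A1_at and the study's ADCY9 probe set each came to −0.11, since their readings lie at the floor. Of 11 named probe sets past the threshold, 11 lost it under at least 1 alternative or left-out sample, or turned. Of 25 not past it, 20 changed sign somewhere and 1 passed somewhere (PPP1CA Ssc.21716.2.S1_at without sow 1, with the block). Probe sets near the background of 8.40 to 12.5 set the limit of what could be compared.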
